A study of Mus musculus with 4 samples.

Results

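The 10 integrin genes described here are Itgb2, its alpha partners Itgam and Itgal, and Itgb1, Itga4, Itga5, Itga6, Itgav, Itgb5 and Itgb7. They were chosen by symbol, and all 10 were found among the 31053 genes of the single-cell RNA-seq matrices. The study compared the ipsilateral cerebral hemisphere of male C57/BL6 mice, labelled as 8 weeks old, after sham surgery with that of mice at 1, 3 and 7 days after transient middle cerebral artery occlusion (tMCAO), in which a filament blocks the artery for a time and is then withdrawn. Each group was 1 library, so that 4 libraries were compared in all, and the number of mice behind each is not given in the sources used here. All animals shared the strain, the sex and the dissociation by papain and Percoll, and no transgene or deletion is named. The series design places the sham animals at day 7, although their treatment label names no day. The study's own scheme of the experiment draws them before the first day.

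Integrins are adhesion receptors made of an alpha and a beta chain that meet in the endoplasmic reticulum and reach the cell surface only as a pair. The beta 2 chain, CD18, is the leukocyte beta chain. With alpha M (Itgam, CD11b) it forms Mac-1, also called complement receptor 3, which binds complement fragments, fibrinogen and ICAM-1, and with alpha L (Itgal, CD11a) it forms LFA-1, the receptor through which lymphocytes and neutrophils hold on to ICAM-1 and ICAM-2 of the endothelium. Beta 1 chains pair with alpha 4 to bind VCAM-1, with alpha 5 to bind fibronectin and with alpha 6 to bind laminins, while alpha V pairs with beta 5 and other chains to bind vitronectin, osteopontin and latent TGF-beta.

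In the GRCm38 annotation, Itgb2 lies on chromosome 10 (chr10:77530252-77565708, plus strand). Itgal (chr7:127296260-127335138) and Itgam (chr7:128062640-128118491) lie on the plus strand of chromosome 7, and Itgb1 (chr8:128685654-128733200) on that of chromosome 8. Chromosome 2 carries Itga6 (chr2:71745616-71858416), Itga4 (chr2:79255426-79333123) and Itgav (chr2:83724397-83806916), each on the plus strand. Itga5 (chr15:103344286-103366763) and Itgb7 (chr15:102215995-102231944) are on the minus strand of chromosome 15, and Itgb5 (chr16:33829665-33949338) is on the plus strand of chromosome 16. An annotated gene, Gm49368, overlaps Itgam on the same strand. It held 29 UMIs in the microglia-like class, against 1675 of Itgam, and 12 in the neutrophil-like class, against 133, and how reads shared by both genes were counted is not known.

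RefSeq promoter sequences (GRCm38.p6) were at hand for 7 of the 10 genes, but not for Itgb2, Itgal and Itga6. Those of Itgam, Itgav and Itga5 are shown because their differences between libraries are described below. Each stretch is the 250 bases before the gene's start in RefSeq, which for Itga5 lies upstream of the start in the annotation above, written 5′ to 3′ on the gene's strand. Capitals mark the letters GAGGAA, or TTCCTC where they lie on the opposite strand, which are the core bound by PU.1, the myeloid transcription factor encoded by Spi1. The stretches are chr7:128062390-128062639 for Itgam (plus strand), chr2:83724147-83724396 for Itgav (plus strand) and chr15:103366792-103367041 for Itga5 (minus strand).
Itgam: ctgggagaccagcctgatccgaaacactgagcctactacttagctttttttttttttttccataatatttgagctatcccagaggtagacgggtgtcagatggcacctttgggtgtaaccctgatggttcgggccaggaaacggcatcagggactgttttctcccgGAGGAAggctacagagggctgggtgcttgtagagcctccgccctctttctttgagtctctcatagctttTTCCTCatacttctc
Itgav: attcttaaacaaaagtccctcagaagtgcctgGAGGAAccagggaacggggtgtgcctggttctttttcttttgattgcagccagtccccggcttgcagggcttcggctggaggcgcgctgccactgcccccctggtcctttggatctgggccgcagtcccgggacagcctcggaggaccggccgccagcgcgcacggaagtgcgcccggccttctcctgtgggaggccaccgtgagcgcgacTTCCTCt
Itga5: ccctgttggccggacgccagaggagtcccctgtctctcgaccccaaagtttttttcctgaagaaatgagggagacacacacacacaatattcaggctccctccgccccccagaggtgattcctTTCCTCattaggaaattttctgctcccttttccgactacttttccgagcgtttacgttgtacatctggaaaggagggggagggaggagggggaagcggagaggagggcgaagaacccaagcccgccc

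In Itgam the letters began 84 and 15 bases before the start, and another match lay 32 bases after it, outside the stretch shown. In the full windows, which run 50 bases past the start, GAGGAA on either strand was present in 5 of the 7 integrin promoters, and in 28.3% of the 27025 promoters of the table. The AP-1 letters TGANTCA, present in 7.93% of all promoters, were in 0 of the 7. A match of letters is a description of the sequence and was not tested against binding.

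The values are counts of unique molecular identifiers (UMIs), each standing for 1 captured RNA molecule. After limits on genes per cell (200 to 3000) and on the mitochondrial share (10%), 44360 cells remained, and a cell was put in a class when it showed at least 2 marker genes of that class and at least 2 times as many as of any other. No integrin gene was among the 139 markers, but the classes rest on other genes of the same cells, and the levels below depend on how they were drawn. Of the kept cells, 39834 (89.8%) had a class, of which 25881 were endothelial-like, 1893 were leukocyte-like and 1150 microglia-like. Genes outside the markers were high where they should be, with C1qa at 10711.7 CPM (UMIs per 1000000 UMIs of the class) in the microglia-like class, Lck at 340.3 CPM in T or NK-like cells and Rgs5 at 6293.6 CPM in pericyte-like cells. The microglia-like class was led by Ccl4 and Il1a along with Cx3cr1 and P2ry12, so that genes of an immune response were among its first genes. Between any pair of libraries, 12 to 50 kept cells had the same barcode. Values for the 4 libraries are always given in the order sham, day 1, day 3, day 7. With 1 library per group there is no test between groups. The 95% intervals given after the values, exact Poisson for levels, exact conditional for ratios and exact binomial (Clopper-Pearson) for shares, cover counting error only and leave out the spread between mice.

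Itgb2 was a leukocyte gene in these hemispheres. Leukocyte-like cells held 83.7% of all its kept UMIs, and likewise 84.6% for Itgam, 86.9% for Itgal and 75.2% for Itgb7, the beta chain of the gut-homing receptor, while they held 4.98% of all kept UMIs. Cells without a class held another 11.8% of Itgb2 UMIs. Among classes of at least 50 cells, neutrophil-like cells had the highest Itgb2 level, with 381, 255, 245 and 293 CPM. In microglia-like cells the levels were 143, 144, 212 and 183 CPM, and in T or NK-like cells 119, 123, 140 and 175 CPM. Border macrophage-like cells were lowest of these, with 28.7, 74.0, 58.8 and 57.9 CPM. The neutrophil-like value was therefore above the other 3 in each library, but it rested on 23, 17, 74 and 22 UMIs. The border macrophage-like values rested on 3, 18, 4 and 3 UMIs, so that the order within single libraries is one of few counts. Pooled over libraries, the neutrophil-like level was 269 CPM (226 to 319). It was 170 CPM (158 to 183) in microglia-like cells and 154 CPM (129 to 183) in T or NK-like cells, whose ranges over the libraries overlapped. The 45 monocyte-like cells, a class under that limit, were at 194, 328, 677 and 478 CPM, above the neutrophil-like class on days 1, 3 and 7.

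Outside the leukocytes, Itgb2 was near 0. Over the 4 libraries, 52 UMIs were found in 25881 endothelial-like cells (0.737 CPM, 0.551 to 0.967), 3 UMIs in pericyte-like cells and 1 UMI in smooth muscle-like cells. After each cell had been thinned to 1000 UMIs, an Itgb2 UMI was present in 14.2% (11.96 to 16.6) of 896 microglia-like cells, in 23.3% (16.1 to 31.9) of 120 neutrophil-like cells and in 11.7% of 188 T or NK-like cells. The same share was 0.0841% of 21401 endothelial-like cells and 0.0420% of 4761 oligodendrocyte-like cells, classes that should lack the gene. Before thinning, the median depth ran from 1962 to 3426 UMIs per cell in the microglia-like class and from 1807 to 2845 UMIs in the endothelial-like class. In the endothelial-like class Itgb2 was at 0.312, 0.929, 0.817 and 0.847 CPM and Itgam at 0.187, 0.929, 1.32 and 0.9802 CPM, and the part of free RNA in these values was not tested. Per library, 11.2%, 12.5%, 17.6% and 14.4% of thinned microglia-like cells had an Itgb2 UMI, with intervals that overlapped throughout.

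**Figure D1:**
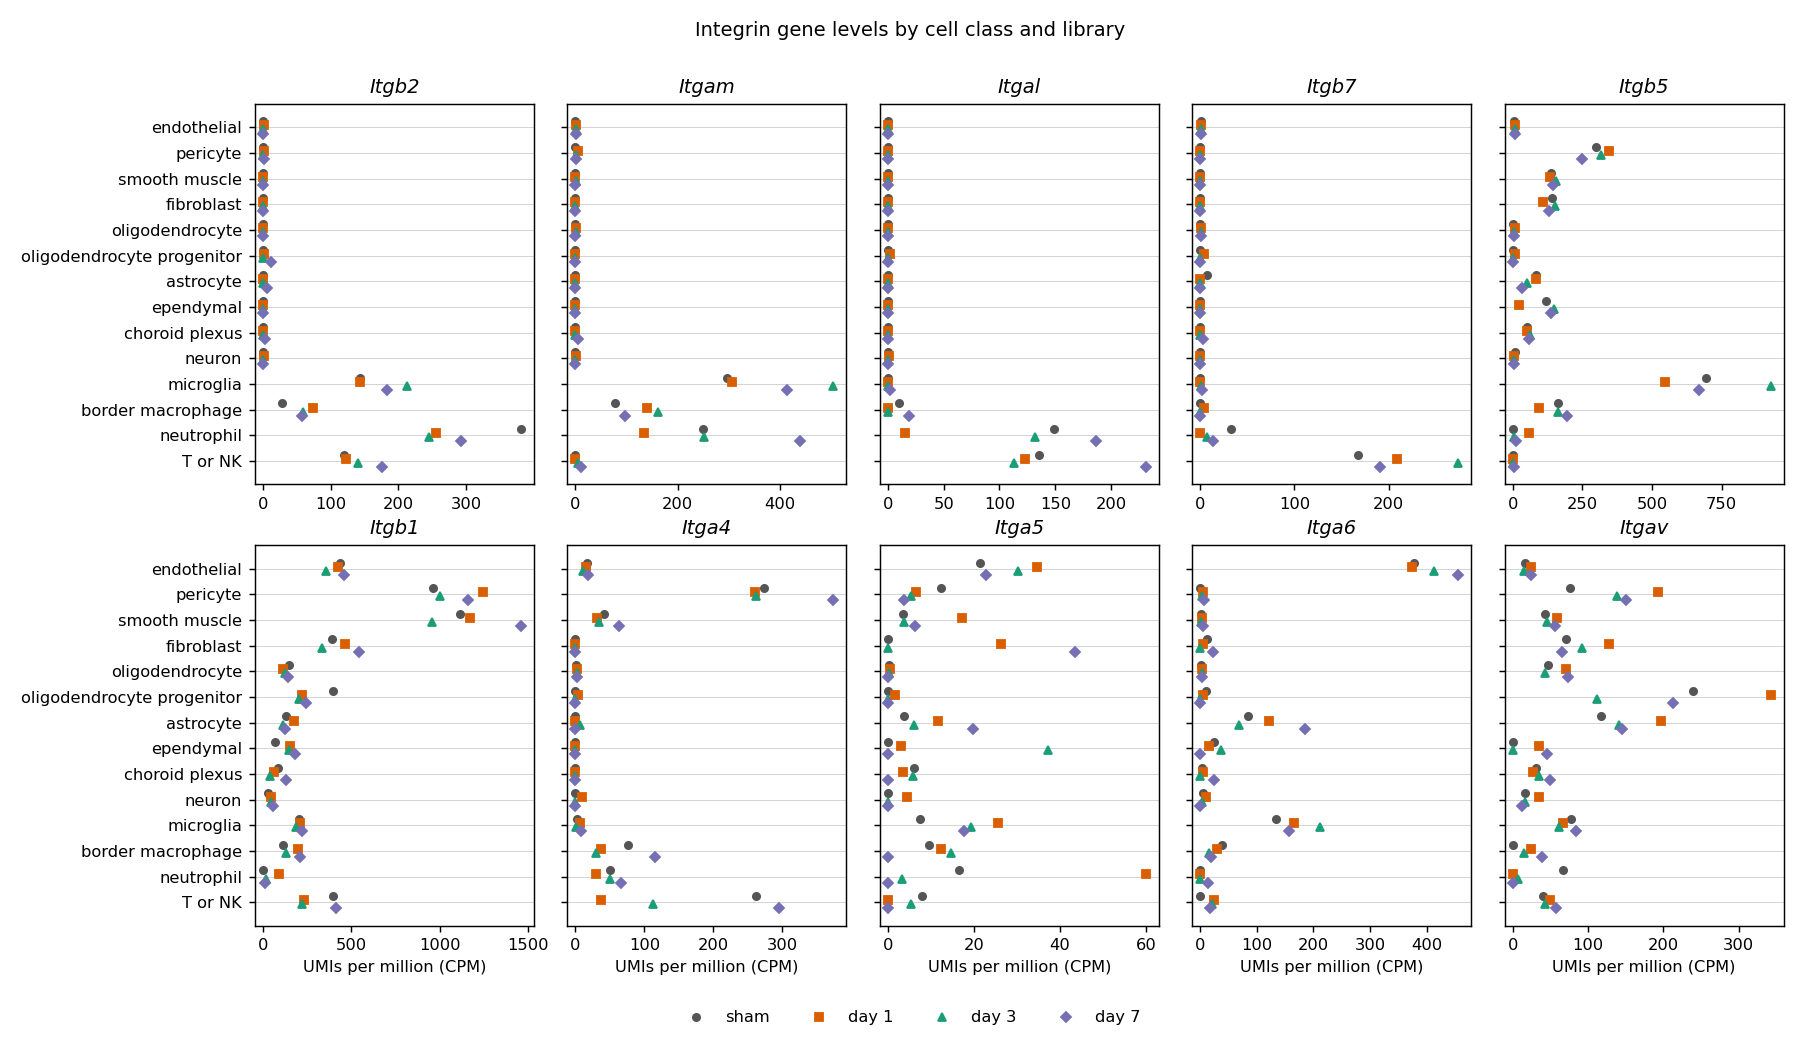
Level of each of the 10 integrin genes, in CPM (horizontal axis, own scale per panel), in 14 marker-defined cell classes. Each point is 1 library (sham, day 1, day 3, day 7), and Itgb2, Itgam, Itgal and Itgb7 lie near 0 outside the leukocyte classes at the bottom of each panel, while Itgb1 is highest in smooth muscle (957 to 1460 CPM) and pericyte (963 to 1247 CPM) cells.

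The alpha partner that accompanied Itgb2 differed between leukocyte classes. Microglia-like cells held 1675 Itgam and 3 Itgal UMIs, a ratio of 558 (191 to 2710). In clusters built without integrin genes, used in place of the marker rule, the ratio was 58.3. Border macrophage-like cells had 58 UMIs of Itgam and 2 of Itgal, a ratio of 29.0 (7.67 to 245). Neutrophil-like cells carried both, with 133 and 64 UMIs and a ratio of 2.08 (1.53 to 2.85). T or NK-like cells were at the other end, with 6 Itgam and 152 Itgal UMIs and a ratio of 0.0395 (0.0143 to 0.0879). The intervals of these 4 classes did not overlap, except that those of the microglia-like and border macrophage-like classes met. A gene's capture efficiency cancels when its ratio is compared between classes, which is why the ratio and not the level of one gene against another is compared.

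Within single libraries the counts were smaller. In the microglia-like class Itgal was at 0, 1, 0 and 2 UMIs, beside 118, 586, 596 and 375 UMIs of Itgam. Where Itgal was at 0, the exact interval of the ratio began at 31.5 after sham surgery and at 161 on day 3. The neutrophil-like ratio was 1.67 after sham surgery, 1.90 on day 3 and 2.36 on day 7, and on day 1 it rested on 9 and 1 UMIs. In T or NK-like cells Itgam had 0, 0, 1 and 5 UMIs while Itgal was found in each library, with 17, 10 and 21 UMIs in the first 3 and 231 CPM on day 7. The monocyte-like cells held 50 Itgam and 61 Itgal UMIs, a ratio of 0.820 (0.552 to 1.21), but the libraries behind it differed. They held 6 and 9 UMIs after sham surgery, 9 and 0 on day 1, 2 and 14 on day 3 and 33 and 38 on day 7, so that Itgam alone was found on day 1 and Itgal was more frequent on day 3.

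Itgam and Itgal UMIs together were 2.24 (2.05 to 2.44) per Itgb2 UMI in microglia-like cells, 2.14 (1.35 to 3.49) in border macrophage-like cells, 1.45 (1.16 to 1.82) in neutrophil-like cells and 1.22 (0.958 to 1.54) in T or NK-like cells. Pooled over libraries, the microglia-like value was above the neutrophil-like and T or NK-like values beyond counting error. The neutrophil-like values were 1.04, 0.588, 1.57 and 2.14 by library, and that of day 7 (1.26 to 3.72) overlapped the microglia-like 2.27 (1.89 to 2.74). Since each gene is captured with its own efficiency, the sum of the alpha partners per Itgb2 UMI is not a ratio of proteins.

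**Figure D2:**
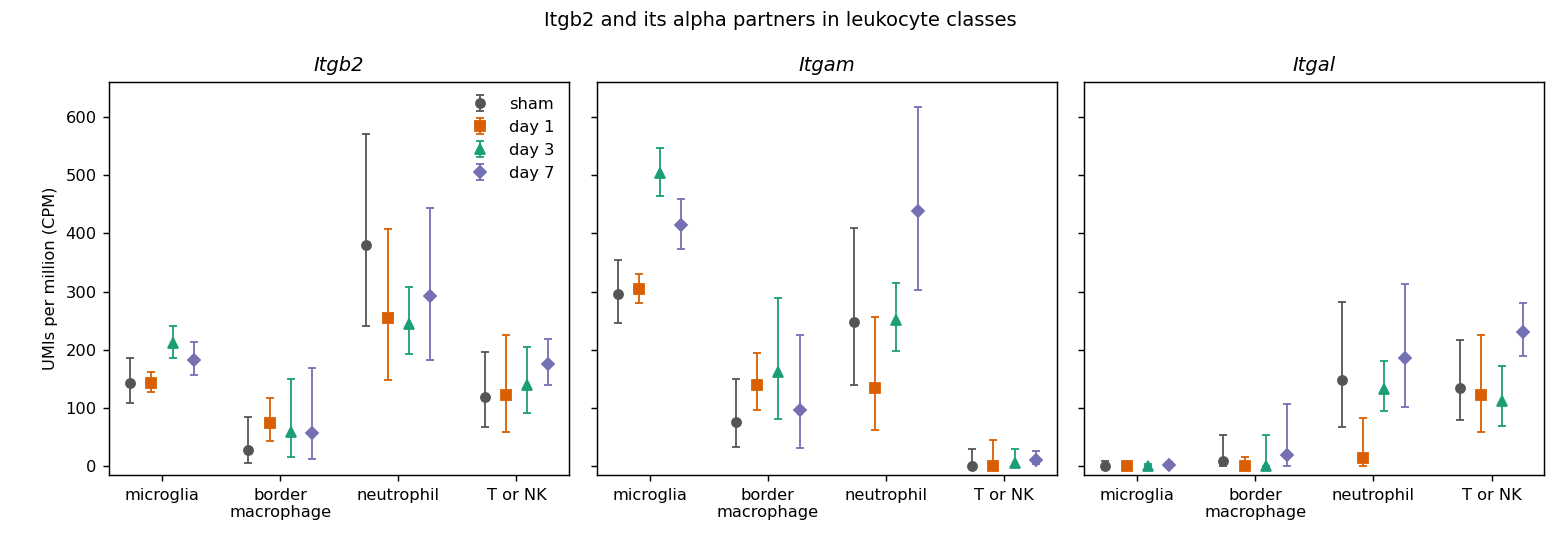
Level in CPM of Itgb2, Itgam and Itgal in 4 leukocyte classes, with 1 point per library and exact Poisson 95% intervals that cover counting error only. Itgam is at 296 to 504 CPM in microglia and 0 to 11.1 CPM in T or NK cells, and Itgal at 0 to 2.21 CPM in microglia and 113 to 231 CPM in T or NK cells, while neutrophils carry both.

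Within single microglia-like cells Itgam was found more often beside Itgb2 at 1000 UMIs per cell, while at 500 UMIs the intervals overlapped. At 1000 UMIs, 56 of the 127 microglia-like cells with an Itgb2 UMI also had an Itgam UMI, which is 44.1% (35.3 to 53.2). Of the 769 cells without an Itgb2 UMI, 218 had an Itgam UMI, which is 28.3% (25.2 to 31.7). These cells are pooled over libraries that differ in both genes. Itgal was present in 0 of the 127 cells, which allows up to 2.86% of cells with an Itgal UMI at this depth and sets no limit on cells that carry the transcript. In T or NK-like cells Itgal was seen in 8 of 22 cells with an Itgb2 UMI (36.4%, 17.2 to 59.3) and in 29 of 166 cells without (17.5%, 12.02 to 24.1), and these intervals overlapped. Itgb5, which has no known pairing with beta 2 chains, was present in 54.3% (45.3 to 63.2) of Itgb2+ and 48.9% (45.3 to 52.5) of Itgb2- microglia-like cells, and the intervals overlapped as well. Neutrophil-like cells had Itgam in 7 of 28 cells with an Itgb2 UMI and in 16 of 92 cells without.

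Over the 36 combinations of class and library with at least 50 cells, the log2 level of Itgb2 went with that of Itgam (r = 0.94) more than with that of Itgal (r = 0.61), and Itgal went with Itgb7 (r = 0.83). The leukocyte points among them were the 4 of the microglia-like class, neutrophil-like cells of day 3 and T or NK-like cells of day 7, so that these r values rest on few points. Points of 1 library share its depth, and the values are descriptions with no test. Among 10194 genes, those with the pattern most like that of Itgb2 were Arhgap30 (r = 0.98), Myo1f, Selplg, Cd53 and Ptprc, of which Cd53 and Ptprc are also markers of the gate. Itgam was most like Tnfaip8l2 (r = 0.98), Lrrc25, Osm, Spi1 (r = 0.96) and Arl11. Itgal was most like Slfn1 (r = 0.95), Atp8b4, Stat4 and Ltb4r1. Stat4 is a transcription factor of T and NK cells.

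After tMCAO, Itgb2 and Itgam of microglia-like cells were above the sham and day 1 levels on day 3. Itgb2 was at 143 CPM after sham surgery and at 144 CPM on day 1, a ratio of 1.00 (0.752 to 1.36). On day 3 it was at 212 CPM, 1.48 times (1.11 to 2.01) the sham level, and on day 7 at 183 CPM, a ratio of 1.28 (0.942 to 1.76). Itgam ran in parallel with 296, 305, 504 and 414 CPM, with ratios of 1.03 (0.843 to 1.27), 1.70 (1.39 to 2.09) and 1.40 (1.13 to 1.73) on days 1, 3 and 7. Day 3 was also above day 1 by 1.48 times (1.24 to 1.76) for Itgb2 and by 1.65 times (1.47 to 1.85) for Itgam. Day 7 over day 3 was 0.864 (0.706 to 1.06) for Itgb2, whose interval included 1, and 0.822 (0.721 to 0.937) for Itgam. The day 3 value of Itgam was 1.33 times the sham level when single cells were averaged in place of summing their UMIs. The day 1 value was 0.774 times the sham level when cells of up to 6000 genes were let in.

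The other integrin genes of microglia-like cells followed different courses. Itgb5 was the most abundant of the 10 in UMIs of this class (40.1% of the total), at 693, 547, 926 and 669 CPM. It was lower on day 1, by a ratio of 0.789 (0.690 to 0.904), and higher on day 3, by 1.34 (1.17 to 1.53). Itga6, the laminin receptor chain, was at 133, 165, 212 and 157 CPM and on day 3 had a ratio of 1.59 (1.18 to 2.19). Itgb1 stayed between 186 and 220 CPM and Itgav between 60.9 and 83.9 CPM, with every interval of their day ratios including 1. Itga5 had 3, 49, 23 and 16 UMIs, and its day 1 ratio of 3.39 had an interval of 1.09 to 17.0.

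Of the 10 genes, 6 had at least 50 CPM on either side of the comparison in microglia-like cells. On day 3, 2 of the 6 (Itgam and Itga6) were at least 1.5 times higher than in the sham library, and 16.7% of the 3091 genes compared were so. None of the 6 was at least 1.5 times lower on day 3, beside 12.6% of all genes. On day 1 none of the 6 was past that fold in either direction, beside 26.9% of all genes higher and 30.6% lower, and on day 7 again none, beside 14.5% and 11.8%. The summed level of the neutrophil markers in this class was 141, 78.1, 264 and 214 CPM, with 6, 3, 1 and 4 of the 8 at 0, and that of the border macrophage markers 87.9, 460, 283 and 253 CPM, with 5, 1, 3 and 3 of the 8 at 0. The part of such RNA in the Itgb2 and Itgam values was not tested.

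Microglia-like cells were 1.59%, 3.33%, 3.63% and 1.74% of kept cells. Over whole libraries Itgb2 was at 4.56, 10.9, 14.5 and 9.35 CPM and Itgam at 5.52, 18.9, 24.2 and 12.8 CPM. In whole libraries, a different share of leukocytes and a different level per cell cannot be told apart. For neutrophil-like, T or NK-like and border macrophage-like cells, with 15 to 99 cells per library, the levels are listed without day ratios.

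In T or NK-like cells, Itgal, Itga4, Itgb1 and Itgb7 were all present. Together with Itgb2, whose levels are given above, these encode the chains of LFA-1, of the VCAM-1 receptor and of the MAdCAM-1 receptor. Itgb7 was at 167, 209, 274 and 191 CPM in T or NK-like cells, and among classes of at least 50 cells the neutrophil-like class was next at 9.90 CPM. The smaller monocyte-like class reached the T or NK-like levels, with 269, 140, 92.3 and 296 CPM from 18, 9, 3 and 34 UMIs, and leukocyte-like cells without a finer class were at 85.1, 17.7, 83.0 and 135 CPM. Itgal was at 135, 123, 113 and 231 CPM and Itgb1 at 397, 234, 220 and 413 CPM. Itga4 was at 262, 36.9, 113 and 295 CPM, the day 1 value resting on 3 UMIs in 28 cells. The counts are too few for a comparison of days.

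The cells of the vessel wall carried the highest Itgb1 levels. Smooth muscle-like cells were at 1115, 1173, 957 and 1460 CPM and pericyte-like cells at 963, 1247, 1004 and 1164 CPM, against 436, 425, 357 and 460 CPM in endothelial-like cells. Beside it, pericyte-like cells had Itga4 at 274, 261, 262 and 374 CPM. Among classes of at least 50 cells they had the highest pooled level of that gene (295 CPM). Endothelial-like cells had Itga6 at 379, 374, 413 and 456 CPM and held 90.7% of all its UMIs. In smooth muscle-like cells Itga6 was at 0.769 to 4.46 CPM. Among the 10 genes, endothelial-like cells thus showed the beta 1 chain with alpha 6 and pericyte-like cells with alpha 4. Outside the 10, Itga1, another partner of beta 1, was at 1150 CPM in pericyte-like and 348 CPM in endothelial-like cells.

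Itgav in pericyte-like cells was above sham on each day. It was at 75.4, 193, 139 and 150 CPM, the sham value resting on 49 UMIs. The ratios were 2.56 (1.86 to 3.59), 1.84 (1.34 to 2.58) and 1.99 (1.44 to 2.80), so that all 3 days lay above sham by more than counting error. Of the 4 members with at least 50 CPM, Itgav alone was at least 1.5 times higher, which is 1 of 4 on each day. Among all genes 13.7%, 8.8% and 20.1% were so on days 1, 3 and 7. None of the 4 was at least 1.5 times lower, beside 10.1%, 5.06% and 6.76% of all genes. Itgb1 was at a ratio of 1.29 (1.17 to 1.43) on day 1, 1.04 on day 3 and 1.21 (1.10 to 1.33) on day 7. Itga4 was at 1.37 (1.14 to 1.64) on day 7, and Itgb5 was at 300, 347, 317 and 249 CPM, with every interval over sham including 1, while day 7 was at 0.716 times (0.607 to 0.845) the day 1 level. The median log2 ratio of all genes in this class on day 7 was 0.12.

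Beside these values, the summed level of the 8 leukocyte markers in pericyte-like cells was 10.8, 74.3, 40.1 and 23.8 CPM, against 9171 to 12188 CPM in microglia-like cells. The fibroblast markers summed to 469, 553, 436 and 375 CPM, and the markers of oligodendrocyte progenitors, the class with the highest Itgav level (301 CPM pooled), to 13.9, 17.5, 7.71 and 8.23 CPM. The neuron markers summed to 81.6, 204, 34.7 and 32.0 CPM, highest on day 1. The microglia markers summed to 103, 168, 118 and 94.2 CPM, also highest on day 1, as for Itgav. Leaving out the 5% of cells with the highest doublet scores gave ratios of 2.62, 1.88 and 2.02. The part of RNA from other cells in the Itgav values was not tested.

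Spp1, which encodes the alpha V ligand osteopontin, was higher after tMCAO in several classes. Among classes of at least 50 cells its pooled level was highest in fibroblast-like cells (3809 CPM). Border macrophage-like (1390 CPM) and microglia-like cells (1353 CPM) came next. In pericyte-like cells it was at 128, 2076, 386 and 1090 CPM, with ratios of 16.3 (13.04 to 20.5), 3.02 (2.39 to 3.86) and 8.54 (6.83 to 10.8). Microglia-like cells had 0, 4451, 792 and 720 Spp1 UMIs, and their day 1 level was 2317 CPM. Smooth muscle-like cells had 2 Spp1 UMIs after sham surgery and 253 on day 1, which is 0.513 and 106 CPM and a ratio of 208 (56.9 to 1723). On days 3 and 7 Spp1 was under 50 CPM in smooth muscle-like cells, the level needed for a comparison. The part of free RNA and of RNA from other cells in the pericyte-like and smooth muscle-like values was not tested.

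**Figure D3:**
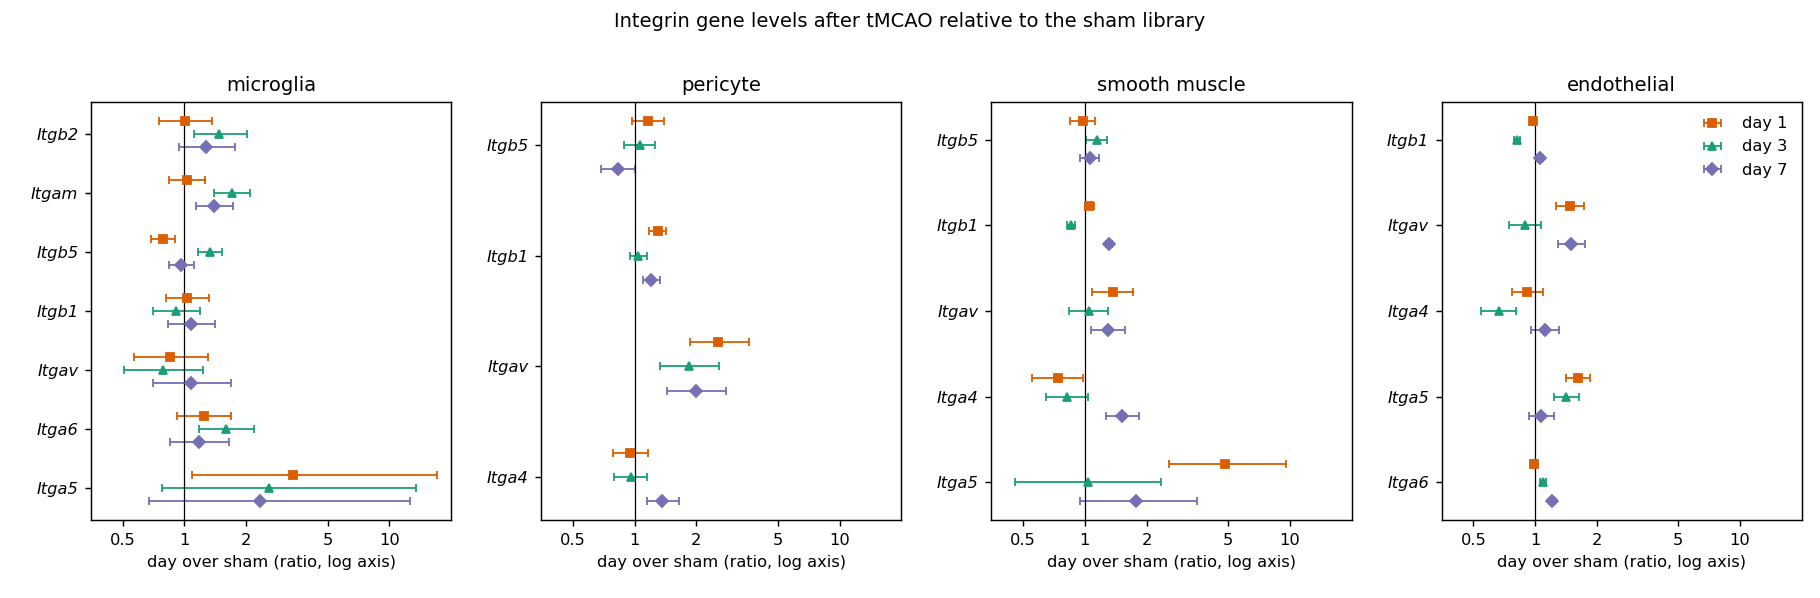
Ratio of each day over the sham library (horizontal log axis, 1 marked by a line) for integrin genes in 4 cell classes, with exact 95% intervals that cover counting error only. Itgav in pericytes lies right of 1 on each day (2.56, 1.84 and 1.99), Itgb2 and Itgam of microglia lie right of 1 on day 3, and Itga5 lies right of 1 on day 1 in smooth muscle, endothelial and microglia cells.

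Itga5, the fibronectin receptor chain, was higher on day 1 in endothelial-like cells. It was at 21.3, 34.6, 30.2 and 22.8 CPM. The ratios were 1.62 (1.42 to 1.86), 1.42 (1.23 to 1.63) and 1.07 (0.931 to 1.23), and day 7 was below day 1 by 0.659 times (0.583 to 0.744). Averaging single cells gave 1.37 on day 1. Smooth muscle-like cells were at 3.59, 17.2, 3.72 and 6.37 CPM, with 14 and 41 UMIs behind the day 1 ratio of 4.80 (2.57 to 9.54). With a mitochondrial limit of 5%, 76 sham and 286 day 1 smooth muscle-like cells were left, with 5 and 24 UMIs, and the ratio was 1.60 (0.598 to 5.37), within counting error. Itga6, which endothelial-like cells held at 374 CPM on day 1, was at 0.769, 3.36, 1.06 and 4.46 CPM in smooth muscle-like cells, with ratios of 4.37 (1.05 to 25.6) on day 1 and 5.80 (1.79 to 29.8) on day 7 from 3, 8 and 28 UMIs. The 8 endothelial markers summed to 93.8, 124, 119 and 147 CPM in smooth muscle-like cells, highest on day 7. The 8 leukocyte markers summed to 4.36, 55.9, 19.1 and 18.2 CPM in smooth muscle-like cells and to 30.6, 88.3, 71.0 and 52.4 CPM in endothelial-like cells, with day 1 highest in both classes, as for Itga5. The part of RNA from other cells in the Itga5 values was not tested. Fn1, which encodes fibronectin, had ratios of 1.62, 1.55 and 1.51 in endothelial-like cells, past 1.5 times on day 7 as well. In smooth muscle-like cells it was at 5.33 (3.93 to 7.33) on day 1, one of 3 of 5 ligands higher by 1.5 times, beside 6.68% of all genes. Of the same 5, Jam3 alone was lower by that fold, at 0.597 (0.511 to 0.694), beside 8.02% of all genes.

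The abundant endothelial chains differed less from sham. Itgb1 had ratios of 0.976 (0.944 to 1.01), 0.819 (0.791 to 0.848) and 1.06 (1.02 to 1.09), and Itga6 had 0.988 (0.953 to 1.02), 1.09 (1.05 to 1.13) and 1.20 (1.17 to 1.24). Both had at least 50 CPM, and neither was past 1.5 times in either direction, beside 6.89%, 6.14% and 11.8% of all genes higher and 10.6%, 6.58% and 4.19% lower on days 1, 3 and 7. Below that level, Itgav was at 16.5, 24.3, 14.6 and 24.8 CPM, with ratios of 1.47 (1.26 to 1.73) and 1.504 (1.30 to 1.75) on days 1 and 7. Itgb5 was at 5.18, 8.05, 6.47 and 6.91 CPM, with ratios of 1.55 (1.17 to 2.07), 1.25 (0.927 to 1.69) and 1.33 (1.02 to 1.76). Itga4 was at a ratio of 0.666 (0.547 to 0.809) on day 3.

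In smooth muscle-like cells Itgb1 was at 1.31 times (1.26 to 1.36) the sham level on day 7 and at 0.858 times (0.821 to 0.897) on day 3. Itga4 was at 42.0, 31.1, 34.3 and 63.7 CPM, with a day 7 ratio of 1.52 (1.26 to 1.83). It was the 1 of 4 members at least 1.5 times higher on that day, beside 19.7% of all genes, and none of the 4 was lower by that fold, beside 3.65%. Fn1 there was at 14.4 CPM after sham surgery and 59.6 CPM on day 7, a ratio of 4.15 (3.13 to 5.60). Of the other integrin chains, 2 of the 3 with at least 50 CPM were higher by that fold on day 7, Itga8 and Itga1, which pairs with beta 1 to bind collagens. Below 50 CPM, Itga5 had a day 7 ratio of 1.78 (0.946 to 3.53). On days 1 and 3 none of 3 and none of 2 members with at least 50 CPM was past 1.5 times in either direction, beside 6.68% and 3.52% of all genes higher and 8.02% and 3.01% lower.

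In the remaining glia the members differed by day as well. Oligodendrocyte-like cells had Itgav at 47.1, 70.9, 43.2 and 73.2 CPM, and the ratios were 1.51 (1.31 to 1.74), 0.916 (0.763 to 1.10) and 1.55 (1.34 to 1.81). It was 1 of 2 members at least 1.5 times higher on days 1 and 7, beside 7.02% and 17.3% of all genes, and on day 3 the count was 0 of 1, beside 2.94%. No member was lower by that fold, beside 8.25%, 1.29% and 7.07% of all genes. Astrocyte-like cells had Itgav at 118, 197, 141 and 145 CPM, and the day 1 ratio was 1.68 (1.12 to 2.58). It was 1 of 4 members higher by 1.5 times, beside 20.5% of all genes, and none was lower, beside 18.4%. On day 3 none was higher, beside 20.9%, and 1 of 4, Itgb5 (0.602, 0.302 to 1.18), was lower, beside 21.9%. Itga6 in astrocyte-like cells was at 185 CPM on day 7, from 23 and 28 UMIs a ratio of 2.19 (1.21 to 3.97), 1 of 4 members beside 25.4% of all genes. Itgb5 on day 7 had a ratio of 0.390 (0.116 to 1.05) from 23 and 5 UMIs, 1 of 4 members lower beside 20.3%. Both Itgb5 intervals included 1. Neuron markers summed to 105, 428, 117 and 155 CPM in oligodendrocyte-like cells, and in astrocyte-like cells microglia markers summed to 77.3, 195, 162 and 119 CPM and leukocyte markers to 0, 84.0, 24.0 and 6.61 CPM, each highest on day 1. The part of RNA from other cells in these Itgav values was not tested. In choroid plexus-like cells none of 2 members was past 1.5 times on day 1, beside 5.61% higher and 37.2% lower, and on day 7 Itgb1 was 1 of 2 (1.55, 0.950 to 2.58), beside 21.8% higher, with none lower, beside 18.3%. The median log2 ratio of all genes in that class was -0.41 on day 1. In neuron-like cells no member had 50 CPM on days 1 and 3, when 24.6% and 16.5% of all genes were higher and 14.2% and 17.1% lower, and Itgb1 on day 7 (1.75, 0.662 to 4.44) was the 1 of 1, beside 23.3% higher and 23.4% lower. Oligodendrocyte progenitor-like cells had Itgav at 239, 342, 112 and 213 CPM, from 29, 194, 16 and 30 cells, the highest level when pooled but on day 3, with 6 UMIs, below that of pericyte-like and astrocyte-like cells. The high Itgav level on day 1 relative to sham was thus seen in pericyte-like, endothelial-like, smooth muscle-like (1.37, 1.09 to 1.72), oligodendrocyte-like and astrocyte-like cells, while the intervals of microglia-like (0.849, 0.570 to 1.30), choroid plexus-like (0.856, 0.431 to 1.89) and neuron-like cells (2.06, 0.931 to 5.36) included 1. These comparisons share the sham and the day 1 libraries, and whether the classes differ was not tested.

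Of list genes past 2 times where a member was past 1.5 times, the small astrocyte-like, choroid plexus-like and neuron-like classes had most. In astrocyte-like cells Spp1 had a day 1 ratio of 14.7 (7.61 to 32.5), Cdh1 2.12, Skap2 2.27 and Jam3 0.354. On day 3 Itgb4 was at 5.43 (1.61 to 28.5), with Fn1 at 0.298, Lama2 at 0.389, Thbs1 at 0.163 and Flna at 0.310. Fn1 was above sham on days 1 and 7, at 1.75 (1.38 to 2.24) and 1.56 (1.13 to 2.13). The 6 fibroblast markers in astrocyte-like cells summed to 254, 242, 53.9 and 178 CPM, lowest on day 3. The 8 pericyte markers summed to 276, 102, 1753 and 52.9 CPM, highest on day 3. The part of RNA from other cells in the values of this class was not tested. On day 7 Itgb4, Itgb8 and Tln2 were at 5.39, 2.21 and 2.87, with Jam3 at 0.299 and Thbs1 at 0.1197. Choroid plexus-like cells had Itgb8 at 2.13 and Fermt2 at 3.76 on day 7. On that day neuron-like cells had Tln2 at 0.137 and both Ptk2 and Ptk2b at 0.298. Ptk2b in neuron-like cells was above sham on day 1, at 2.08 (1.45 to 3.06), and at 0.238 (0.0817 to 0.574) on day 3. Several of these ratios rest on under 10 UMIs on one side. In astrocyte-like cells the interval of Skap2 on day 1 (0.979 to 6.13) included 1. So did those of Tln2 (0.829 to 11.2) and Jam3 (0.0565 to 1.02) on day 7.

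Of the 16 other integrin chains, those with the highest mean level over classes were Itga1 (1150 CPM in pericyte-like cells), Itgb8 (318 CPM in oligodendrocyte progenitor-like cells), Itga7 and Itga8. In microglia-like cells 0 of the 16 reached 50 CPM in either library on any day. Of the 20 ligands, Spp1, Fn1, Vcam1 and Jam3 led. In endothelial-like cells Fn1 was at 956 CPM and Vcam1 at 297 CPM pooled, and Icam1, the ligand of both beta 2 receptors, was one of 3, 4 and 3 ligands at least 1.5 times higher on days 1, 3 and 7, of the 8 with at least 50 CPM on each day, beside 6.89%, 6.14% and 11.8% of all genes. The pooled Icam1 level was higher in microglia-like cells (373 CPM) than in endothelial-like cells (103 CPM). In microglia-like cells Icam1 was at 442, 410, 251 and 426 CPM. Its day 3 ratio there was 0.568 (0.470 to 0.688), while the intervals of days 1 and 7 included 1. Of the 18 activation adaptors, Rap1a, Flna, Fermt2 and Rap1b led, and Fermt3, which encodes the leukocyte kindlin that switches beta 2 integrins on, was highest in microglia-like cells at 213 CPM. Tln1, the talin that binds the beta chain's tail, was at 286, 143, 143 and 222 CPM in microglia-like cells, a ratio of 0.498 (0.399 to 0.625) on day 1 and 0.499 (0.391 to 0.638) on day 3. On day 3 it was the 1 of 9 adaptors at least 1.5 times lower, beside 12.6% of all genes, and on day 1 it was one of the 3 lower among 10, beside 30.6%, so that both counts were near the share over all genes.

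Another alpha partner of the beta 2 chain, alpha D (Itgad), was found where beta 2 was not. Itgad lies on chromosome 7 (chr7:128154376-128223816, plus strand), as Itgam does, and its product is known from macrophages. In these libraries it was at 94.6 CPM in oligodendrocyte-like cells and at 2.33 CPM in the next class, with 1 UMI in 1150 microglia-like cells. In oligodendrocyte-like cells it was at 21.0, 166, 31.3 and 89.6 CPM. The ratios were 7.91 (6.56 to 9.61), 1.49 (1.17 to 1.91) and 4.27 (3.50 to 5.25), and under the 8 alternatives the day 1 ratio ran from 7.48 to 9.44. At 1000 UMIs per cell, an Itgad UMI was present in 2.56% (1.55 to 3.98), 14.7% (13.2 to 16.3), 4.35% (3.05 to 5.995) and 8.14% (6.58 to 9.92) of cells. The UMIs were spread over 1031 of 2127 cells on day 1, with at most 8 in a cell.

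Itgb2 was present in 6 of the 4841 oligodendrocyte-like cells, and in 3 of the 1663 with an Itgad UMI (0.1804%, 0.0372 to 0.526). The leukocyte markers summed to 4.44, 34.2, 21.7 and 11.2 CPM in this class, and the neuron markers, at 105, 428, 117 and 155 CPM, had the same order over the libraries as Itgad. The part of RNA from other cells in the Itgad values was not tested. The gene Cox6a2 lies within Itgad on the opposite strand and had 65 UMIs in the class, against 2697 of Itgad. Whether the Itgad UMIs stand for a full transcript cannot be told from counts per gene.

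**Figure D4:**
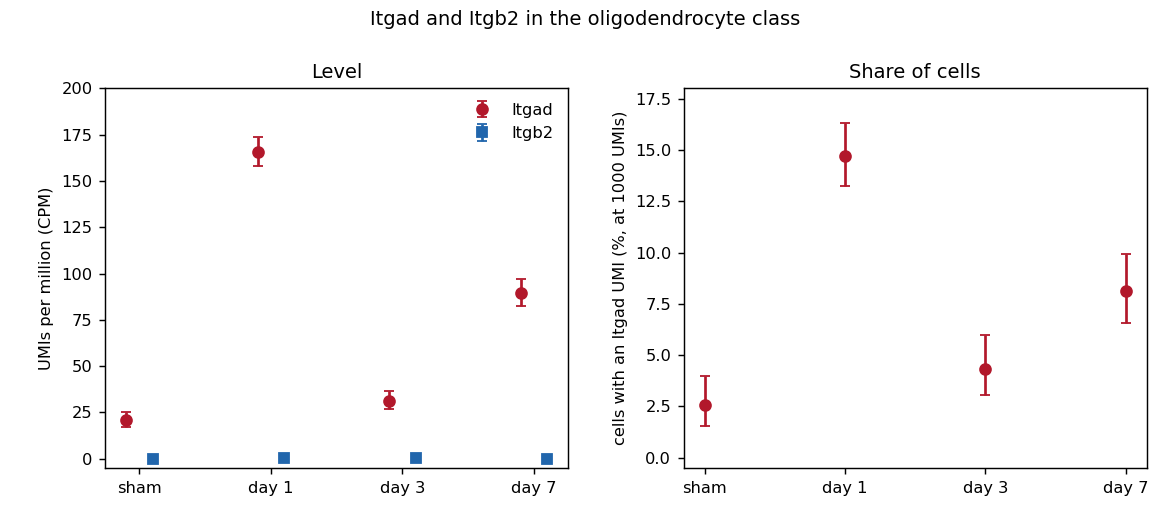
Left, level in CPM of Itgad and Itgb2 in oligodendrocyte-like cells of each library, and right, the percent of these cells with an Itgad UMI after thinning to 1000 UMIs per cell, with exact 95% intervals that cover counting error only. Itgad is at 21.0, 166, 31.3 and 89.6 CPM while Itgb2 stays under 1 CPM.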

How the data were processed

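Single-cell libraries were made with the 10x Genomics 3′ assay. The matrices deposited by the authors hold raw counts of UMIs and are already filtered to called cells. The submitters' processing notes name Cell Ranger 3.0.1, Seurat 4.1.2 and GRCh38, whereas the file headers name Cell Ranger 4.0.0 and the identifiers are mouse genes, of which 99.6% matched the GENCODE annotation of GRCm38 used here. UMIs at the 3′ end do not scale with transcript length, but capture differs between genes. Depth was 69392755 to 104023002 UMIs per library before filtering. Kept cells numbered 7562 (sham), 13376 (day 1), 9378 (day 3) and 14044 (day 7), and 4300 cells with markers of several classes stayed without a class. Nothing is known of the spread between mice.

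From the deposited counts, CPM, ratios, shares after thinning to 1000 UMIs and exact 95% intervals came from scipy 1.17.1, pandas 2.3.3 and numpy 2.4.6 (Python 3.11.15). Days were compared with sham in classes of at least 50 cells in both libraries, over genes of at least 50 CPM in either, with 1.5 times as the fold. Figures were drawn with matplotlib 3.10.9. The calculations were tested on simulated data. Scrublet (scanpy 1.11.5) called 0.0142% to 4.61% of cells as doublets at its automatic threshold, under 0.5% in 3 libraries, so cells were kept, and an alternative left out the 5% of highest score. Alternatives changed the cell limits, the class rule, the scaling and the thinning.

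The genes named are the 10 members, the 5 genes most like each of Itgb2, Itgam and Itgal (1 of these is not reported here), the 4 of highest mean CPM in each list (16 other integrin chains, 20 ligands, 18 adaptors), and list genes past 2 times where a member was past 1.5 times. Other genes named from the lists, and Itgax and Itgae, were chosen after their values were seen. The members and lists were chosen with earlier results of these data known.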

Additional observations from a re-analysis of the deposited data

Results flagged for a closer look

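Itgb1 on day 1 differed in direction between classes. It was 1.29 times the sham level in pericyte-like cells (963 and 1247 CPM) and 0.771 times (0.706 to 0.842) in oligodendrocyte-like cells (148 and 114 CPM). Both intervals leave out 1, on opposite sides, and cover counting error only. The comparisons share the same pair of libraries, and the difference between the classes was not tested.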

How the results depend on the processing

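No paired analysis was possible because each group was 1 library and no result comes from a test. For the same reason no replicate could be left out. The 24 day ratios followed through the alternatives were a chosen set and not all those compared. Of them, 21 had an interval that left out 1, and these kept their direction in each of 168 recalculations. Since the recalculations use the same libraries and ratios already past counting error, a kept direction says little about new samples. It also does not mean that a ratio stayed past counting error. Of the ratios, levels and counts that answer a comparison, 156 recalculated values stayed within the counting interval (or within 1.5 times, for a count) and 18 moved. Of the other values, 148 stayed and 37 moved. When clusters built without integrin genes replaced the marker rule, Itgb2 in microglia-like cells was at 150 CPM in place of 170 CPM, and the Itgam to Itgal ratio there was 58.3 in place of 558. With cells of up to 6000 genes, Itgam in microglia-like cells was at 0.774 times the sham level on day 1. Averaging single cells gave 1.33 for Itgam in microglia-like cells on day 3 and 1.37 for Itga5 in endothelial-like cells on day 1. A mitochondrial limit of 5% gave 1.60 for Itga5 in smooth muscle-like cells on day 1, with an interval that included 1. Over all classes and days, 12 of 67 member comparisons were at least 1.5 times higher and 2 lower, beside 15.47% and 13.01% of all genes. The counts were 7 higher when cells were averaged, 4 lower with the 5% mitochondrial limit, and 81 higher and 15 lower of 230 with no limit on CPM, where 34 of the 81 had 0 UMIs in the sham library. The shares over all genes under these settings are not given here, nor the number of comparisons behind the counts of 7 and 4. These counts are therefore not read as a result about the members. The share of microglia-like cells with an Itgb2 UMI depended on depth by construction. It was 3.33%, 7.64%, 10.3% and 4.90% of cells at 500 UMIs and 32.5%, 38.7%, 42.6% and 41.2% without thinning for sham and days 1, 3 and 7. Itgam was in 23.5% (15.004 to 34.0) of Itgb2+ and 15.6% (13.5 to 17.9) of Itgb2- microglia-like cells at 500 UMIs, where the intervals overlapped, and in 74.4% and 40.8% without thinning, settings chosen after seeing the data. The cause was not tested for the other moves. Small leukocyte classes limit the per-library ratios, and 1 library per group limits every comparison of days.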

Other observations

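The remaining alpha partners of the leukocyte beta chains were rare. Itgax, which encodes CD11c, was at 0 UMIs in 120 sham microglia-like cells and at 9, 16 and 34 UMIs on days 1, 3 and 7, which is 4.69, 13.5 and 37.5 CPM. The day 7 UMIs came from 17 of 245 cells, with up to 9 in a cell. The sham interval reaches 9.26 CPM, so that the day 7 level (26.0 to 52.5 CPM) lay above it and the day 1 level (2.14 to 8.90 CPM) did not. The 6 dendritic cell markers summed to 7.53, 4.69, 0.845 and 30.9 CPM in microglia-like cells, also highest on day 7. The part of RNA from other cells in the Itgax values was not tested. Itgae, which pairs with beta 7, was highest in T or NK-like cells, where it had 1, 0, 3 and 14 UMIs for sham and days 1, 3 and 7, the 14 coming from 5 of 99 cells.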
